A study of Mus musculus with 6 samples.

Results

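The genes of MHC class II antigen presentation were described in visceral fat RNA of obese mice with and without Cre-mediated deletion of Hmox1, the gene of heme oxygenase-1 (HO-1). The 8 genes were chosen by symbol: the invariant chain Cd74, the class II chains H2-Aa, H2-Ab1 and H2-Eb1, the peptide-loading chaperone chains H2-DMa and H2-DMb1, the class II transactivator Ciita and the co-stimulatory ligand Cd86. Of these, 7 were found among the 19938 genes with a probeset of their own, each with 1 probeset. H2-DMb1 was represented by 1 probeset that also stands for its neighbour H2-DMb2, so no value is given for it. RNA was hybridised to Affymetrix gene arrays, 3 for each genotype, and each array held a pool from 2 mice on the C57BL/6 J background.

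The Hmox1f/f PdgfraCre mice carried loxP-flanked Hmox1 and a Cre recombinase driven by the promoter of Pdgfra, a receptor gene active in adipose precursors (APs). The Hmox1f/f controls carried the same floxed alleles without Cre, so the effects of Cre itself and of losing Hmox1 cannot be told apart. All mice had eaten a high-fat diet (HFD) for 8 weeks, starting at 6 weeks of age, and the material came from perigonadal visceral fat (viWAT). Arrays are numbered 1 to 3 with Cre and 4 to 6 without. The labels call the material both bead-purified APs and viWAT. The AP isolation in the methods removes CD45 and CD31 positive cells and would take out leukocytes, yet the macrophage markers (14 of 14 above the filter given below) and the adipocyte gene Adipoq (12.74 to 13.10 on the log2 scale) were read clearly on all arrays. In such bulk RNA, fewer cells of a type and less RNA per cell cannot be told apart.

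Median intensity lay between 106 and 115 on the 6 arrays, and 10849 to 11108 genes per array exceeded a log2 intensity of 7. Hmox1 itself read 11.25, 11.36 and 10.74 with Cre against 11.90, 11.63 and 12.32 without, a difference of -0.83 ± 0.23 (SE) on the log2 scale with an adjusted p of 0.266 by limma. Pdgfra differed by -0.17 ± 0.08 (SE), with an adjusted p of 0.355. Genes of the epididymis, which adjoins this fat pad, were high on Hmox1f/f PdgfraCre array 1 (Lcn5 at 12.21) and Hmox1f/f array 6 (Gpx5 at 10.33). The mean of the 6 epididymal genes found was 7.83 and 7.73 on these arrays. On Hmox1f/f PdgfraCre array 3 the mean was 5.84, but the epididymal gene Adam7 read 8.93. On Hmox1f/f array 5 the mean was 5.88, with Gpx5 at 6.87 and the epididymal gene Spag11b at 6.43. Precision is limited by there being 3 arrays a group, and p-values measure the spread between these pools.

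MHC class II molecules carry peptides of ingested proteins to the surface of macrophages, dendritic cells and B cells, where CD4 T cells read them. Newly made alpha and beta chains are held by the invariant chain, which is cut down by endosomal proteases until a short fragment fills the groove. The DM chaperone then exchanges this fragment for peptide, and DO restrains DM. Transcription of the class II chains, the invariant chain and DM depends on CIITA, which is recruited by a complex of RFX, CREB and NF-Y bound to the X and Y boxes of their promoters. Fat of obese mice is known for macrophages that present antigen, and adipocytes and stromal cells can also be induced to express class II by interferon-gamma.

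The class II promoters in which this element was found are shown first. It was found for chains of I-A, I-E, DM and DO, but not in every promoter searched. Of the genes printed, H2-Aa and H2-Eb1 were tested on the arrays. The capitals mark the core GNAAC of the X box and the core ATTGG of the Y box, which reads CCAAT on the opposite strand, with 25 to 32 bases between them. Both strands of the 250 bases before each annotated start were searched in RefSeq promoters of GRCm38.p6, and each stretch is printed 5′ to 3′ along its gene's strand with 10 bases on either side.
H2-Aa (alpha chain of I-A, chr17:34287857-34287914, minus strand): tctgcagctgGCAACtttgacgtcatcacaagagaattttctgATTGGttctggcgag
H2-Eb1 (beta chain of I-E, chr17:34305766-34305822, plus strand): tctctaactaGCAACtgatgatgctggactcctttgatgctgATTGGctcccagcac
H2-DMb1 (beta chain of DM, chr17:34153087-34153144, plus strand): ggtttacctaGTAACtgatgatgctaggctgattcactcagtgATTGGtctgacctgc
H2-Oa (alpha chain of DO, chr17:34092293-34092350, plus strand): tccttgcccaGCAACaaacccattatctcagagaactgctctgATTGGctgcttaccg
H2-Ob (beta chain of DO, chr17:34238808-34238862, plus strand): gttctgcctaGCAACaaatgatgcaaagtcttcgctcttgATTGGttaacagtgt
H2-Eb2 (a second I-E type beta chain, chr17:34325533-34325589, plus strand): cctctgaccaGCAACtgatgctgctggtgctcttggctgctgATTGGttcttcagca

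**Figure D1:**
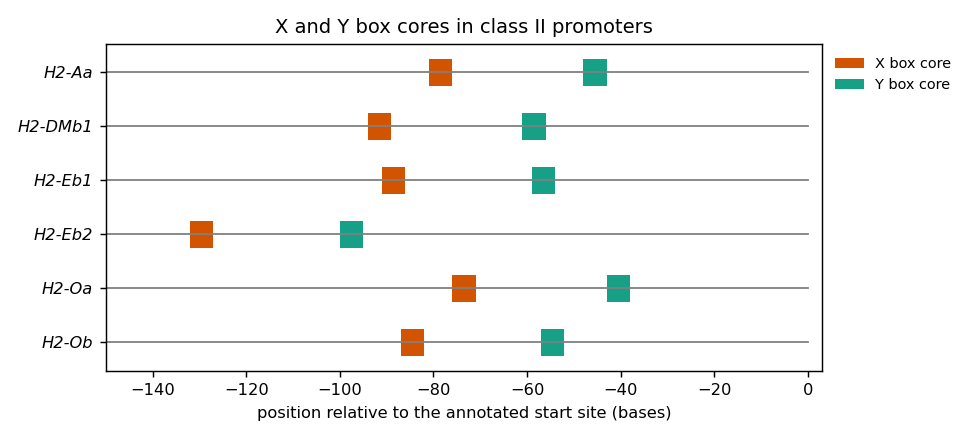
Position of the X box core and the Y box core, in bases relative to the annotated start site, in the 6 class II promoters that hold the spaced pair. The X core begins between 132 and 76 bases before the start and the Y core ends between 96 and 39 bases before it.

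The table held promoters for 8 of the 13 class II and member genes looked up, and 6 of those 8 (75%) held the spaced pair, against 362 of 27025 genes (1.34%) in the whole table. H2-DMa and H2-DMb2 held both cores but not at this spacing. Cd74, H2-Ab1, Ciita, Cd86 and H2-Ea had no entry. Each core alone was common, with CCAAT in 37.5% and GNAAC in 82.1% of all promoters. The pair was found in 0 of 5 promoters of endosomal processing genes, 0 of 9 of macrophage markers and 1 of 14 of class I presentation genes. A match of letters is a description and does not show that a factor binds.

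Setting the mice with Cre against those without asks which transcripts differ when Hmox1 is deleted in APs of obese mice. The class II genes showed no detectable genotype difference. All 7 measured genes had overlapping groups, with log2 differences between -0.10 and 0.01. All 7 passed the filter on low values, a log2 intensity above 7 on at least 3 arrays, which left 11024 genes to be tested. Cd86 exceeded it on 5 arrays and the others on 6. By limma, 0 of the 7 had an adjusted p under 0.05 and 0 an unadjusted p under 0.05. Over all genes tested the corresponding shares were 0% and 15.8%. Groups did not overlap for 0 of the 7, against 27% of all genes tested.

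Cd74 encodes the invariant chain, which guides class II to the endosome. Its log2 intensity was 13.01, 13.08 and 12.88 on the arrays with Cre and 12.93, 13.12 and 13.00 on those without. The groups overlapped fully, with both the highest and the second lowest array among the controls. The difference was -0.02 ± 0.09 (SE; adjusted p = 0.897 by limma), and its 95% confidence interval ran from -0.24 to 0.19 on the log2 scale.

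H2-Aa and H2-Ab1 encode the alpha and beta chains of I-A, the class II molecule of this strain. H2-Aa read 12.44, 12.63 and 12.24 with Cre and 12.53, 12.71 and 12.37 without. H2-Ab1 read 12.33, 12.54 and 12.21 with Cre and 12.41, 12.63 and 12.32 without. Both chains gave the same order of arrays, with Hmox1f/f 5 highest, Hmox1f/f PdgfraCre 2 next and Hmox1f/f PdgfraCre 3 lowest. The differences were -0.10 ± 0.13 (SE; adjusted p = 0.716 by limma) for H2-Aa and -0.09 ± 0.12 (SE; adjusted p = 0.702) for H2-Ab1.

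H2-Eb1 encodes the beta chain of I-E, whose alpha chain gene H2-Ea is defective in C57BL/6 mice. H2-Eb1 read 11.35, 11.54 and 11.12 with Cre and 11.41, 11.57 and 11.25 without, again in the order of arrays seen for the I-A chains. The difference was -0.07 ± 0.14 (SE; adjusted p = 0.793 by limma). H2-Ea lay between 4.64 and 4.91 on all arrays, far below the filter, and was not tested.

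H2-DMa, the alpha chain of the peptide exchanger DM, read 9.01, 9.22 and 8.75 with Cre and 9.08, 9.22 and 8.95 without. The lowest array was once more Hmox1f/f PdgfraCre 3, and Hmox1f/f PdgfraCre 2 equalled the highest control. The difference was -0.09 ± 0.14 (SE; adjusted p = 0.744 by limma). The DO chains, which restrain DM, stayed below the filter, with H2-Oa between 5.78 and 6.39 and H2-Ob between 6.60 and 6.99. H2-Eb2 lay between 5.55 and 6.23, and the groups overlapped for all 4 of these other chains.

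Ciita encodes the transactivator that switches the class II genes on. It read 7.88, 8.20 and 8.00 with Cre and 7.98, 8.25 and 7.88 without. The group means were equal at 8.03, with a difference of -0.01 ± 0.13 (SE; adjusted p = 0.983 by limma). Hmox1f/f 5 and Hmox1f/f PdgfraCre 2 were again the highest arrays, while the lowest was Hmox1f/f 6.

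Cd86 encodes a ligand of the T cell receptors CD28 and CTLA-4 and is no part of the class II molecule. It read 7.20, 7.04 and 7.48 with Cre and 7.34, 7.44 and 6.92 without. Its order of arrays was another one: Hmox1f/f PdgfraCre 3, the lowest array for the class II chains, was the highest for Cd86. The difference was 0.01 ± 0.17 (SE; adjusted p = 0.988 by limma), with an interval from -0.41 to 0.42. It lies just inside the filter, where robust multi-array average values compress differences.

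**Figure D2:**
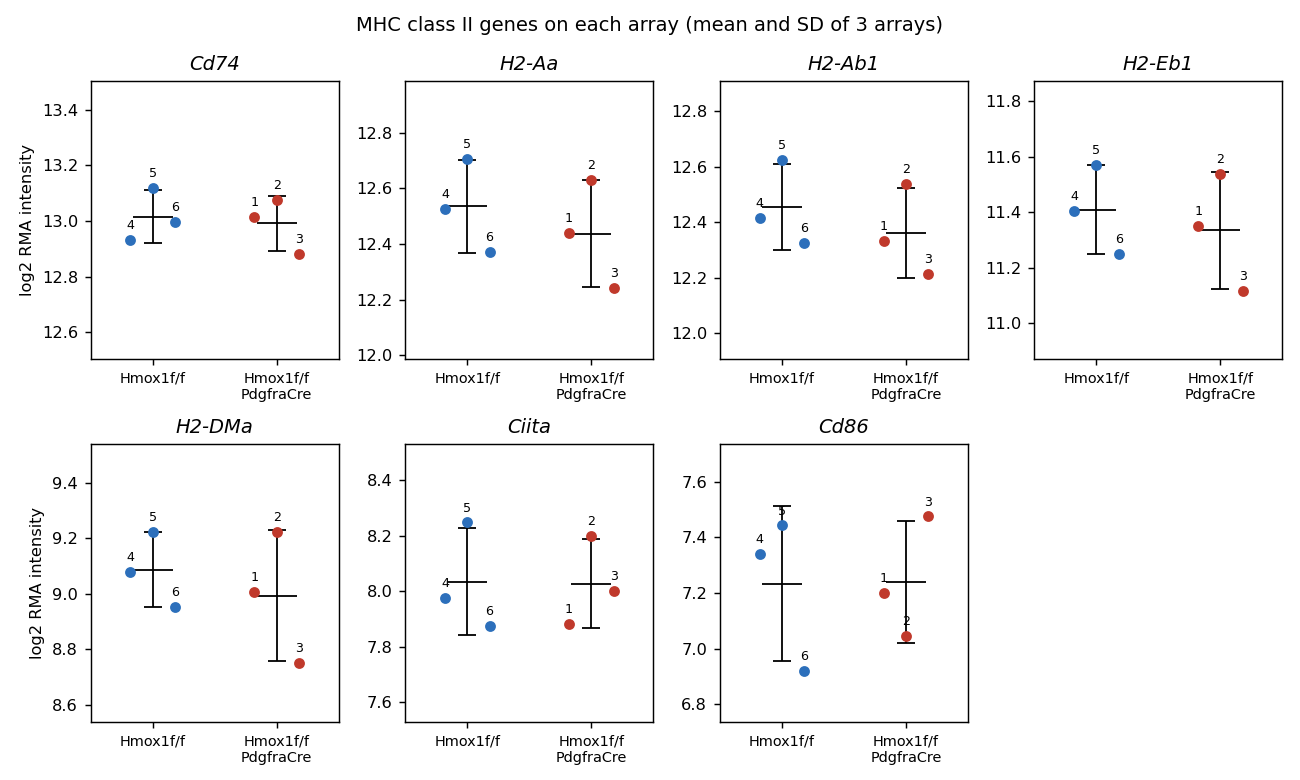
Log2 intensity of the 7 measured genes on each array, by genotype (points, 1 per array; bars, mean and SD of 3 arrays). The groups overlap in every panel, for example 12.88 to 13.08 with Cre against 12.93 to 13.12 without for Cd74.

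The differences of 6 of the 7 genes were below 0, as were 57.4% of all differences tested. Their median was -0.07, against -0.03 over all genes tested. All 7 intervals lay between -0.43 and 0.42 on the log2 scale, and the widest among the class II chains was that of H2-DMa, from -0.43 to 0.24. The direction rested on single arrays. Without Hmox1f/f PdgfraCre 3 only 2 of the 7 were below 0, and without Hmox1f/f 5 only 3, while without Hmox1f/f 6 all 7 were.

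The larger spread was between arrays of the same genotype, and the genes shared it. The mean deviation of the 7 genes from their own means was 0.19 on Hmox1f/f 5 and 0.10 on Hmox1f/f PdgfraCre 2, and -0.13 on both Hmox1f/f PdgfraCre 3 and Hmox1f/f 6. The range over the 6 arrays was 0.24 for Cd74, 0.46 for H2-Aa, 0.41 for H2-Ab1, 0.45 for H2-Eb1, 0.47 for H2-DMa, 0.37 for Ciita and 0.56 for Cd86. As a measure of likeness, the root mean square difference from that mean profile was at most 0.08 for the members other than Cd86 and 0.21 for Cd86, with a median of 0.17 over all genes tested. The profile was built from the same genes, so their closeness to it is a description.

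Genes outside the 7 that lay closest to the profile over the 6 arrays were Rpl32l (root mean square difference 0.04), Ermard, Cela1, Gpaa1, Atp5g3, Lin7b, Nfkbiz, Snx5, Sh3bp5l and Ppm1m (0.05 each). With 6 arrays such likeness is easily found among 11024 genes.

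The enzymes that prepare peptides for class II stood lower with Cre. Whether they differed from the class II chains in this was not tested. All 7 endosomal processing genes tested had their 3 arrays with Cre below the 3 without, against 21.2% of all genes tested, and 6 had an unadjusted p under 0.05 in that direction, against 12.8%. None passed the adjusted threshold. The median difference of the list was -0.36.

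Lgmn, the asparagine endopeptidase legumain, can cut the invariant chain. Lgmn read 11.86, 12.04 and 11.77 with Cre and 12.30, 12.29 and 12.47 without, a difference of -0.46 ± 0.10 (SE; adjusted p = 0.266 by limma). Ctss, the cathepsin that makes the last cuts of the invariant chain in antigen-presenting cells, read 12.38, 12.66 and 12.28 against 12.79, 12.77 and 12.83, a difference of -0.36 ± 0.11 (SE). Ctsh, an aminopeptidase of the lysosome, differed by -0.42 ± 0.12 (SE), and Ctsl, the cathepsin that does the work of Ctss in thymic epithelium, by -0.25 ± 0.08 (SE). Ifi30, the thiol reductase GILT that opens disulphide bonds of antigens, was the most scattered, at 12.03, 12.18 and 11.45 with Cre and 12.33, 12.29 and 12.50 without, with a difference of -0.49 ± 0.19 (SE). For each of these genes the array nearest the controls was Hmox1f/f PdgfraCre 2.

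The count of 6 dropped to 2 when Hmox1f/f PdgfraCre 1 was left out and to 3 for either of Hmox1f/f 4 and Hmox1f/f 6, and it was 2 without both arrays high in epididymal genes, while the median stayed between -0.47 and -0.27 with any single array left out. Macrophage markers were lower on the same arrays: 14 of 14 were below 0 with Cre, against 57.4% of all genes tested, and 9 had an unadjusted p under 0.05 in that direction, against 12.8%. The mean of the list lay between 10.50 and 10.84 with Cre and between 11.04 and 11.08 without. The part of macrophage RNA in the protease values was not tested, and since this mean separates the genotypes fully, macrophage RNA and genotype cannot be told apart here.

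**Figure D3:**
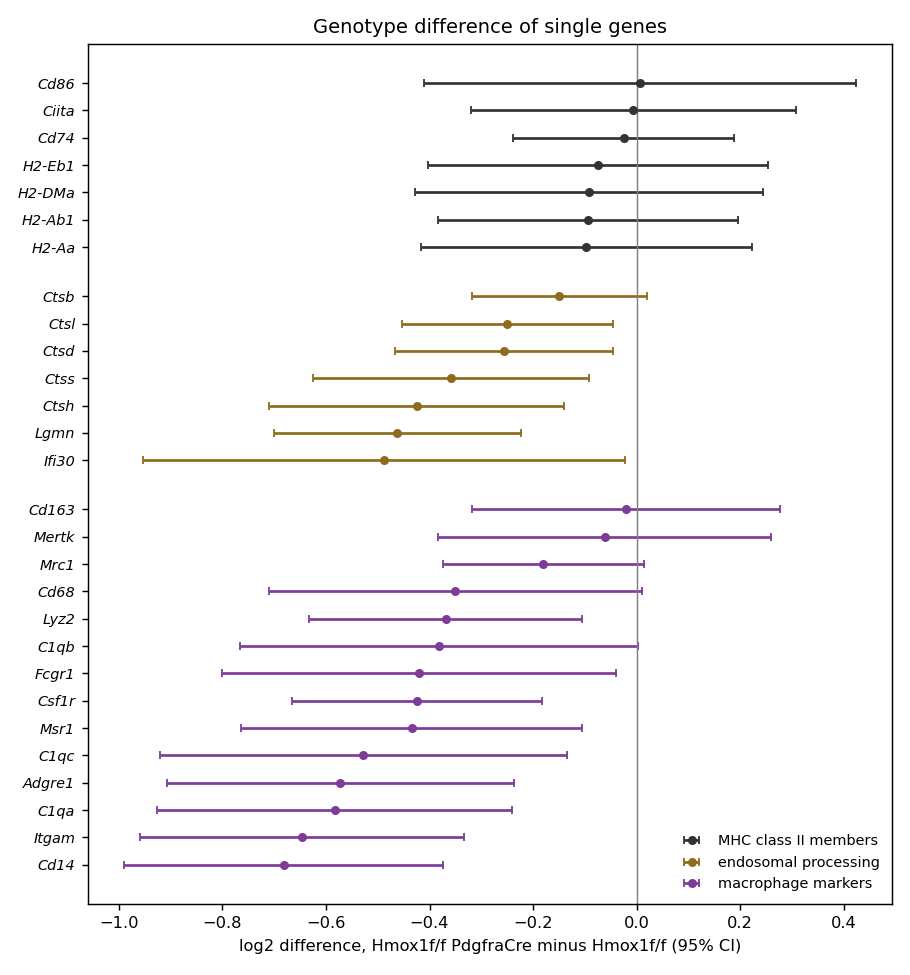
Log2 difference, Hmox1f/f PdgfraCre minus Hmox1f/f, with its 95% confidence interval for the class II members, the endosomal processing genes and the macrophage markers (point, estimate of 1 gene). The 7 class II members lie at -0.10 to 0.01 with intervals across 0, and the 7 endosomal processing genes at -0.49 to -0.15, beside -0.68 to -0.02 for the 14 macrophage markers.

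The genes that switch class II transcription on, promoter factors together with the interferon-gamma receptor and its kinases, did not share one direction. The mean of the 15 genes found still lay lower with Cre, between 9.10 and 9.12 against 9.16 to 9.19 without. Of 14 genes tested, 7 were below 0 and 7 above, while 57.4% of all genes tested were below 0. An unadjusted p under 0.05 was seen for 5 in the lower direction, against 12.8% of all genes tested, and for 0 in the higher, against 3.03%. Rfx5, Rfxap and Rfxank, the subunits of the RFX complex that binds the X box, differed by -0.10 ± 0.09, -0.00082 ± 0.07 and 0.01 ± 0.09 (SE), with overlapping groups. Of the NF-Y subunits, which bind the Y box, Nfya differed by -0.34 ± 0.13 (SE; adjusted p = 0.291 by limma) and Nfyc by -0.19 ± 0.08 (SE), while Nfyb differed by 0.17 ± 0.12 (SE).

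Spi1, the myeloid factor PU.1 that drives Ciita in macrophages and dendritic cells, read 10.76, 10.98 and 10.35 with Cre and 11.11, 11.10 and 11.42 without, a difference of -0.52 ± 0.18 (SE; adjusted p = 0.273 by limma). Irf8, its partner in myeloid cells, differed by -0.25 ± 0.08 (SE), and Ifngr2, a chain of the interferon-gamma receptor, by -0.30 ± 0.11 (SE). The other receptor chain Ifngr1 and the kinases Jak1 and Jak2 went the other way, by 0.03 ± 0.07, 0.03 ± 0.08 and 0.34 ± 0.17 (SE). So did Irf1 and Creb1, by 0.02 ± 0.10 and 0.06 ± 0.13 (SE), and the groups overlapped for each of these genes. Ifng itself lay between 5.49 and 5.73 and was not tested. The count of 5 was between 1 and 2 when any array other than Hmox1f/f PdgfraCre 2 was left out, and 0 without both arrays high in epididymal genes. It was 1 after another quantile normalization with all 6 arrays kept.

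Marchf1 and Marchf8, ubiquitin ligases that send class II and CD86 to degradation, differed by -0.04 ± 0.09 and -0.09 ± 0.08 (SE), with overlapping groups. Of the 6 co-stimulation genes tested, 2 had an unadjusted p under 0.05, both lower, against 12.8% of all genes tested. The mean of the 9 co-stimulation genes found lay between 7.36 and 7.45 with Cre and between 7.47 and 7.53 without. Cd80, the other ligand of CD28, read 7.89, 7.90 and 7.92 with Cre and 8.24, 8.08 and 8.23 without, a difference of -0.28 ± 0.07 (SE; adjusted p = 0.266 by limma), where its relative Cd86 gave 0.01. The difference between the 2 genes was not tested. With the mean of all probesets in place of the highest, Cd80 differed by -0.14 ± 0.07 (SE; unadjusted p = 0.088 by limma). The count of 2 was then 1. Cd83, a marker of mature dendritic cells that keeps class II and CD86 on the surface, differed by -0.55 ± 0.16 (SE; adjusted p = 0.266). Icam1, Cd274 and Cd40 differed by -0.19 ± 0.09, 0.27 ± 0.18 and -0.02 ± 0.09 (SE), and none had an unadjusted p under 0.05.

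On the T cell side, which reads class II, 10 genes were found and 1 passed the filter: Cd3e differed by -0.07 ± 0.19 (SE), and Cd4 lay between 6.19 and 6.79. The genes tested of class I presentation, which serves CD8 T cells, were likewise near 0. Their median was -0.03 over 14 genes, 8 below 0 and 6 above, while 57.4% of all genes tested were below 0. The class I heavy chain genes H2-K1 and H2-D1 had no value and are not among the 14. Psmb8, an immunoproteasome subunit encoded within the class II region, differed by -0.29 ± 0.10 (SE). It had the single unadjusted p under 0.05 among the 14, against 15.8% of all genes tested.

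**Figure D4:**
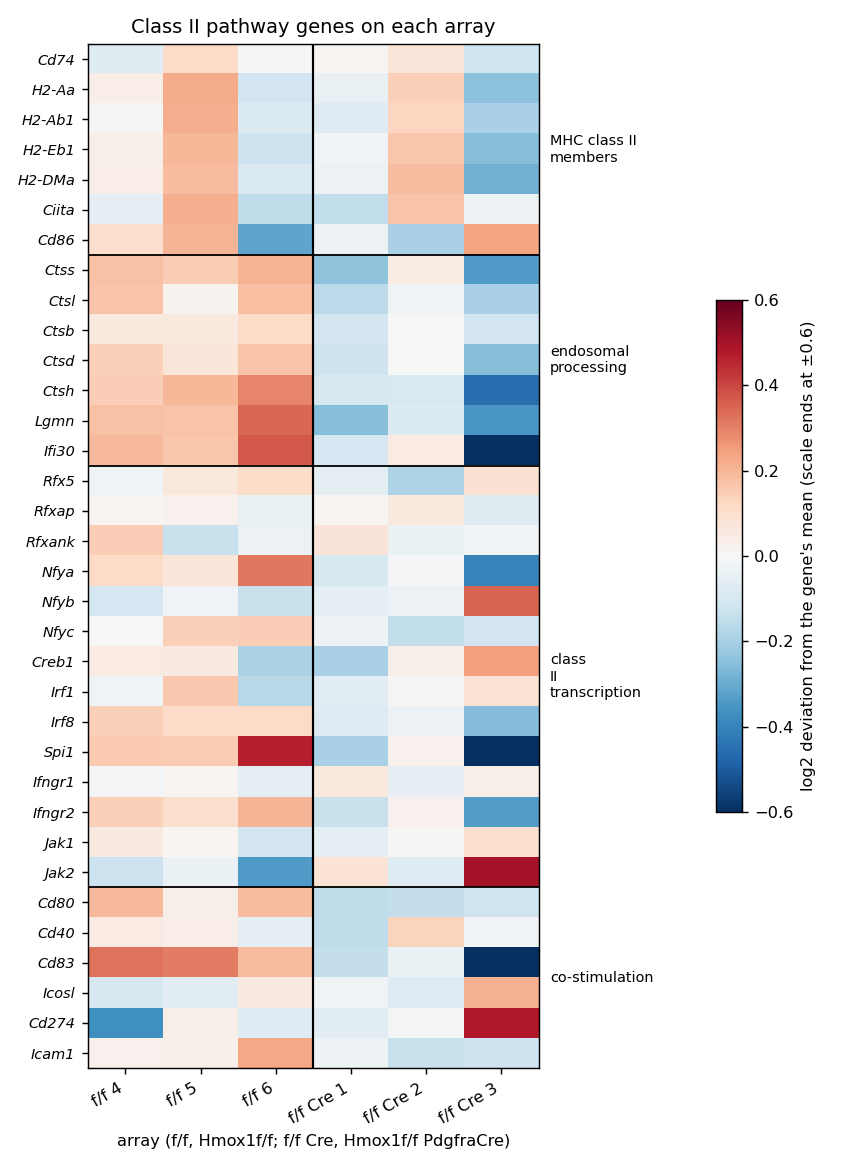
Deviation of each gene from its mean over the 6 arrays, in log2 units, for the class II members and the pathway genes (columns, arrays; colours end at 0.6 in either direction). The class II chains share high values on Hmox1f/f 5 (mean deviation of the members 0.19) and Hmox1f/f PdgfraCre 2 (0.10), whereas the endosomal processing genes divide by genotype.

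The cells that could carry class II were followed by their markers. Macrophage markers were lower with Cre at a median of -0.42, with differences of -0.68 ± 0.13 (SE) for the endotoxin co-receptor Cd14, -0.65 ± 0.13 for the integrin Itgam and -0.42 ± 0.10 for the growth factor receptor Csf1r. Fcgr1, Mertk and Cd163 had overlapping groups, at -0.42, -0.06 and -0.02. Dendritic cell markers had list means of 7.06 to 7.25 with Cre and 7.14 to 7.30 without, with 5 of 11 above the filter. Among them Itgax, which fat macrophages also express, differed by -0.67 ± 0.21 (SE) and Batf3 by -0.21 ± 0.08, while Irf4, Zbtb46 and Cd209a had overlapping groups at -0.16 ± 0.11, 0.15 ± 0.13 and 0.09 ± 0.10. Flt3, Xcr1, Clec9a and Ccr7 did not pass the filter.

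B cell markers had list means of 6.40 to 6.58 with Cre and 6.32 to 6.64 without, and 3 of 9 passed the filter. Of those 3, Cd22 differed by -0.34 ± 0.10 (SE), and Cd79b and Ighm by 0.17 ± 0.12 and 0.12 ± 0.21 with overlapping groups. Ms4a1, Cd79a and Pax5 did not pass the filter. Neutrophil markers had list means of 6.54 to 6.70 with Cre and 6.67 to 6.71 without. Mast cell markers had a median of -0.94 and list means of 7.11 to 7.63 with Cre and 7.86 to 8.10 without. AP markers had list means of 10.42 to 10.49 with Cre and 10.50 to 10.60 without, and adipocyte markers 12.46 to 12.62 and 12.26 to 12.47. Endothelial markers had a median of 0.37, mural markers of 0.32 and mesothelial markers of -0.21. The part of any of these cells in the class II values was not tested.

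**Figure D5:**
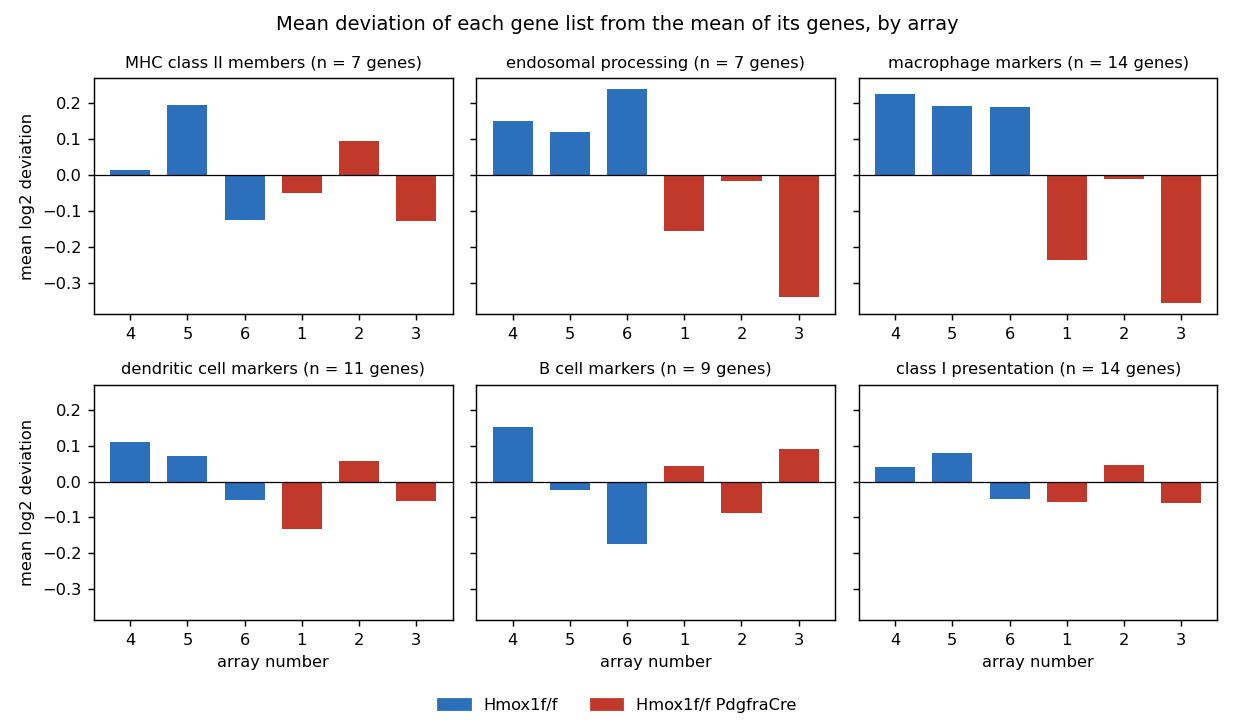
Mean deviation of each gene list from the means of its own genes, in log2 units, on each array. Macrophage markers and endosomal processing genes lie lower on arrays 1 to 3 (with Cre) than on 4 to 6, while the class II members run from -0.13 to 0.10 with Cre and from -0.13 to 0.19 without.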

How the data were processed

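RNA from 3 pools of Hmox1f/f PdgfraCre and 3 of Hmox1f/f mice (200 ng each) was hybridised by the authors to Affymetrix mouse gene arrays. The deposited values are whole-number intensity values per probeset, which according to the submitters' processing notes come from robust multi-array average (RMA: background correction, quantile normalization, summary over probes), run with version 1.1 of Affymetrix Expression Console. Differences of dim probesets are compressed by this method, and quantile normalization would hide a change common to most genes. The genome build of the array design is not given in the sources used here.

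The platform annotation gave 1 symbol for 21789 of 35556 probesets, several for 1621 and none for 12146; 21698 matched the RefSeq gene table and 0 were renamed. The probeset with the highest mean over all arrays stood for a gene, which left 19938 genes. Log2 values were fitted by limma 3.58.1 in R 4.3.3 (lmFit, then eBayes; two-sided), genotype being the only term. Genes above a log2 intensity of 7 on at least 3 arrays (11024) were kept, and Benjamini-Hochberg adjustment ran over them. The methods state this filter for another screen of the study. Confidence intervals are at 95%. The model was tested on simulated data. Plots used Python 3.11.15 and matplotlib 3.10.9.

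The members and gene lists were chosen with earlier results of these data known. The rule for named genes took all members, H2-Ea, H2-Oa and H2-Ob, and the 10 genes closest to the members' mean profile. It also took up to 4 tested genes of smallest p from each pathway list. Of the marker lists, only those of macrophages, dendritic cells and B cells gave named genes under it, up to 3 each. Other genes were named after their values were seen. Listed symbols with no value under the rule above were not analysed here. Promoters were 250 bases before the start of 27025 genes (RefSeq, GRCm38.p6). The alternatives tried were dropping the filter, setting it at 6, adding the other criterion of the methods (mean absolute deviation within the highest tercile), another quantile normalization, median centring, trended and robust moderation, array weights, the mean of all probesets, the macrophage marker mean as a covariate and leaving out each array. A fit without both arrays high in epididymal genes was added after the data were seen.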

Additional observations from a re-analysis of the deposited data

How the results depend on the processing

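No member passed an unadjusted p of 0.05, and no gene an adjusted p of 0.05, under any setting run. The 1740 genes with an unadjusted p under 0.05 became 1117 under the full filter of the methods, 379 with the macrophage mean as a covariate, 431 without both arrays high in epididymal genes, and 945 (without Hmox1f/f 6) to 2103 when each array was left out. The number of members below 0, 6 of 7, was 0 under the full filter, which kept only Cd86 to test, 1 (Cd86) with the covariate, and 2 to 7 with single arrays left out. The members' median of -0.07 became 0.27 with the covariate and ran from -0.17 to 0.0072 without single arrays. Endosomal processing went from 6 genes to 0 with the covariate, 2 without both epididymal-high arrays and 2 to 7 without single arrays, and its median to -0.0076. Macrophage markers went from 9 genes to 3 without both epididymal-high arrays and 7 to 11 without single arrays. With the covariate their count was 0 and their median -0.0058. This covariate is their own mean, which holds the average of their differences at 0 by construction. The covariate separates the genotypes fully, so fits with it say little about any gene.

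Directions turned for members at or near 0: Cd74 was 0.014 and Ciita 0.043 after another quantile normalization, Ciita 0.011 after median centring, and Cd86 -0.19 with array weights and -0.13 without both epididymal-high arrays. With the covariate the members were 0.17 (Cd74), 0.34 (H2-Aa), 0.27 (H2-Ab1), 0.39 (H2-Eb1), 0.43 (H2-DMa), 0.26 (Ciita) and -0.44 (Cd86), and other genes were 0.057 (Calr), 0.017 (Cd22), -0.26 (Cd274), 0.10 (Cd83), 0.089 (Ctss), 0.10 (Ifngr2), 0.26 (Itgax), 0.16 (Marchf1), 0.059 (Nfya), 0.046 (Psmb8) and 0.14 (Spi1). Marchf1 was 0.011 after quantile normalization and Ighm -0.23 without both arrays. With single arrays left out, the range was -0.067 to 0.029 for Cd74, -0.19 to 1e-04 for H2-Aa, -0.17 to 0.036 for H2-Eb1, -0.21 to 0.029 for H2-DMa, -0.093 to 0.10 for Ciita, -0.15 to 0.11 for Cd86, -0.23 to 0.085 for Cd3e and -0.068 to 0.27 for Ighm. The causes were not tested.

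No paired analysis was possible because the arrays are numbered 1 to 3 and 4 to 6, so the genotypes share no number. The median SE of 0.10 over all genes tested sets the size of difference these arrays can show.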
